A study of Sus scrofa with 8 samples.

Results

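Chromatin accessibility was compared between the CBP and WT groups of porcine muscle satellite cells at 60 h of differentiation, with 2 libraries in each group. These are 4 of the 8 samples of the study. Peaks of the 4 libraries were merged wherever they overlapped by 1 bp on chromosomes 1 to 18 and X, which gave 124539 regions. A region is called opened here when both CBP libraries and neither WT library had a peak in it, which held for 7419 regions. A region is called closed in the reverse case, which held for 6225 regions. Opened and closed are names of these call patterns: a region without a peak may still hold signal under the authors' threshold.

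The assay was ATAC-seq, which reads out accessible DNA as the sites where a transposase can cut and add adapters. The groups carry the labels WT_60h and CBP_60h under genotype and cell differentiation under treatment, and the groups WT_0h and CBP_0h are labelled cell proliferation. One treatment text stands on all 8 samples, the WT ones included. It names the inhibitor SGC-CBP30 at 5 uM/ml, applied over 48 h of proliferation and over 60 h of differentiation. Whether CBP marks the treated cells or a genotype is therefore not settled by the labels. The cell line is labelled C3H, while the organism is pig and the peaks lie on pig chromosomes. Neither the origin of the cells nor whether replicates are separate cultures or animals is given, so each p-value measures only a spread between libraries that may be technical.

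CBP (gene CREBBP) and its relative p300 (EP300) are acetyltransferases that bind many transcription factors, acetylate histones at enhancers and promoters, and carry a bromodomain that reads acetylated lysine. SGC-CBP30 binds this bromodomain. In skeletal muscle, both acetyltransferases act as coactivators of MyoD, the factor that drives satellite cells, the resident stem cells of muscle, from division into differentiation and fusion.

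The labelled cell type was checked against marker genes with a peak within 1 kb of a gene end. PAX7, MYF5, MYOD1, DES, CDH15 and MYOG, which is 6 of 7 muscle markers, had one in every 60 h library, and ITGA7 had none. Markers of other cells were also called: 2 and 2 of 6 endothelial markers in WT against 3 and 3 in CBP, 3 of 5 immune and 3 of 5 pericyte markers in every 60 h library, 1 of 4 neural markers and 2 of 4 adipocyte markers. Called in all 8 libraries were PECAM1 and KDR (endothelial), CD68, SPI1 and CD3E (immune), ERBB3 (neural), PDGFRB and MYH11 (pericyte and smooth muscle), and PPARG and PLIN1 (adipocyte). Some of these peaks were strong: −log10 q at 60 h was 26.2 to 33.4 for SPI1, 20.1 to 27.2 for CD3E and 39.9 to 54.4 for ERBB3. Genes were given without strand, so such a peak may lie at the start or the finish of the marker, or belong to a neighbouring gene. CDH5, TIE1, CSF1R, SOX10, ADIPOQ and FABP4 had no such peak in any of the 8 libraries. At 60 h, TEK, an endothelial receptor, and RGS5, a pericyte gene, were called there in both CBP and neither WT library. CNN1, a smooth muscle gene, was called in both WT and neither CBP library at 60 h, and likewise at 0 h. At 0 h, TEK was called in all 4 libraries, and RGS5 had the reverse pattern, with both WT and neither CBP library. The part of other cell types in the results was not tested. Bulk peak lists cannot tell fewer cells of a type from less accessible chromatin in each cell.

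The WT libraries held 86282 and 82696 peaks and the CBP libraries 88871 and 87977. Both CBP libraries lay above both WT libraries, by 3935 peaks on average (ratio 1.05), and a two-sided exact permutation test gave p = 0.333, the smallest that 2 against 2 can give. Relative depth, as solved from fold and p-value of each peak, was 1.11 and 1 in WT and 1.21 and 1.08 in CBP, so the groups overlapped in depth. The peaks covered 55.8 and 51.4 Mb in WT and 56.2 and 55.2 Mb in CBP. The median peak was 552 and 522 bp wide in WT and 528 and 525 bp in CBP, so widths overlapped between groups.

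The regions opened in CBP were 5.96% of all merged regions and the closed ones 5.00%, against 42.8% (53287) called in all 4 libraries. With equal peak numbers, where each list was cut to its 82696 strongest peaks, closed regions (6733) outnumbered opened ones (6510). The remaining patterns give the scale for these counts. A pair made of 1 WT and 1 CBP library was the only pair with a peak in 1995 (WT replicate 1 with CBP replicate 1), 2010 (WT 1 with CBP 2), 1470 (WT 2 with CBP 1) and 1416 regions (WT 2 with CBP 2). Both same-group pairs thus held more regions of their own than any of the mixed pairs. Single libraries each held more than the pair of their own group: 10996 and 9243 regions in CBP replicates 1 and 2, and 8677 and 7252 in WT replicates 1 and 2. The share of regions in common, counted as those with a peak in both libraries over those with a peak in either, was 0.684 for the WT replicates and 0.670 for the CBP replicates. Between groups it ran from 0.584 to 0.606.

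**Figure D1:**
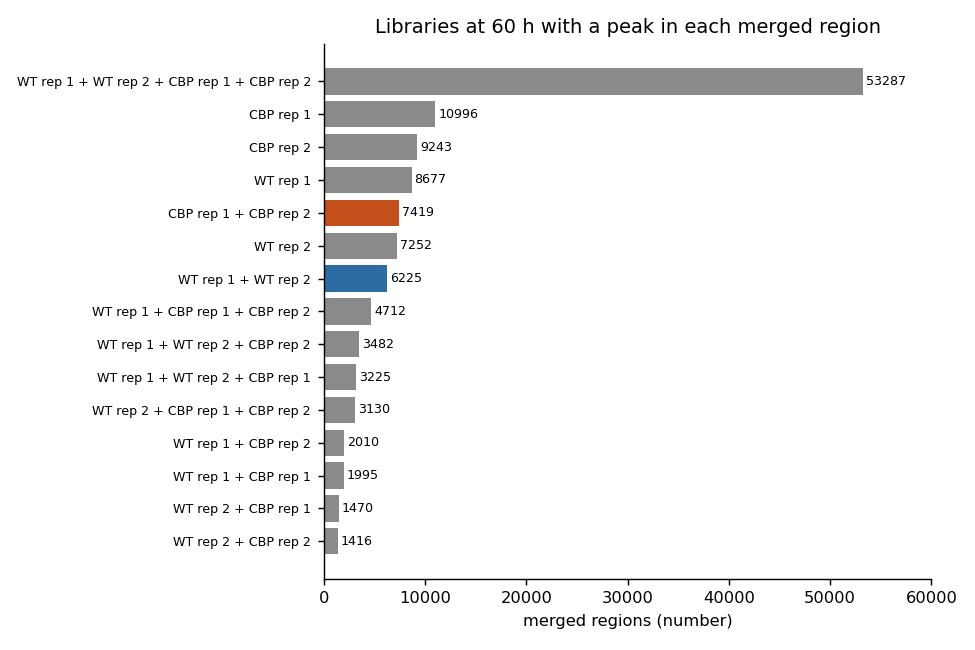
Number of merged regions (horizontal axis) with a peak in exactly the named libraries at 60 h (vertical axis), 15 patterns in all. Regions of both CBP libraries alone (orange, 7419) and of both WT libraries alone (blue, 6225) outnumber each mixed pair, where 1416 to 2010 regions lie.

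Most opened and closed regions were weak peaks. The authors' −log10 q in the weaker of the libraries that called a region had a median of 4.14 in opened, 4.56 in closed and 9.35 in regions called in all 4 libraries. It reached at least 5 in 2484 opened regions (33.5%) and 2602 closed regions (41.8%), and at least 10 in 188 and 319. Opened regions were thus more numerous among weak peaks, and closed regions among the stronger ones. Of the 24395 regions whose strongest peak reached 20, 16 were opened and 47 closed, and 98.9% were called in all 4 libraries. Median widths were 491 bp in opened, 475 bp in closed and 938 bp in shared regions.

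**Figure D2:**
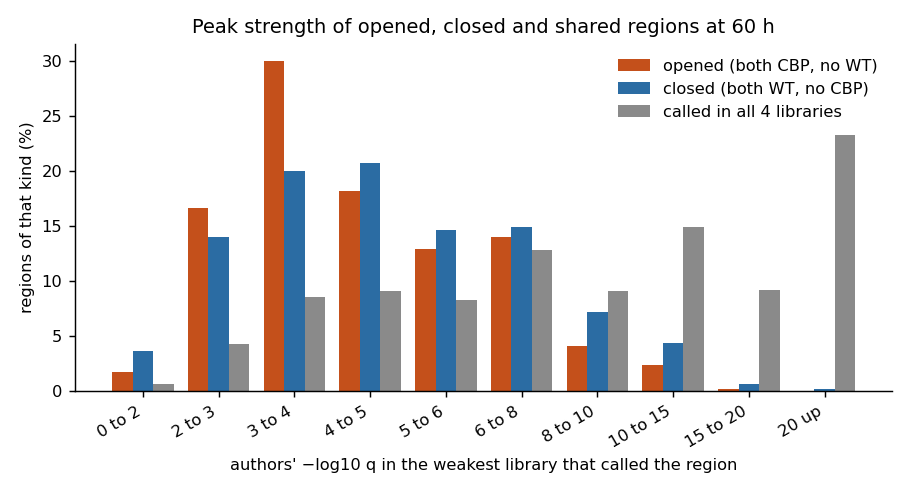
Share of regions in percent (vertical axis) by the authors' −log10 q in the weakest library that called them (horizontal axis) for opened, closed and shared regions at 60 h. Opened and closed regions gather below 8, while shared regions reach above 20.

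Opened and closed regions lay in different places. Of the opened regions 49.8% lay between genes, 45.5% inside a gene and 4.73% within 1 kb of a gene end. Closed regions lay inside genes more often, with 53.1% there, 41.8% between genes and 5.08% at gene ends. Over all merged regions 41.0% lay between genes, 45.8% inside a gene and 13.2% at gene ends. Regions called in all 4 libraries were at gene ends in 23.5% of cases, and regions of the remaining call patterns in 5.52%. A protein-coding gene end lay within 50 kb of 50.8% of opened and 63.8% of closed regions, against 65.3% of all merged regions. In this share, and in the share between genes, closed regions were nearer to all regions than opened ones were. The same order held with only peaks of −log10 q of at least 5, where 50.03% of opened and 43.1% of closed regions lay between genes. With equal peak numbers the shares were 49.97% and 42.7%. These are shares of regions, not of samples, and no test was made of them.

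The position of whole peak lists moved the same way. At 60 h these lists contain the peaks of the opened and closed regions, so this is not an independent result. Summits between genes were 39.0% and 38.8% of peaks in WT and 40.7% and 40.3% in CBP, so both CBP libraries were higher (mean difference 1.58 percentage points, two-sided exact permutation p = 0.333, the smallest possible). Summits inside genes were 45.8% and 45.3% in WT and 44.3% and 44.6% in CBP. At 0 h the summits between genes were 40.5% and 40.5% in WT against 41.6% and 40.8% in CBP, the same direction with a mean difference of 0.718 percentage points.

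The 0 h libraries did not choose the regions and were used to look at them in proliferating cells. Opened regions had a peak in 55.8% and 59.6% of cases in the WT 0 h libraries and in 70.7% and 60.6% in the CBP 0 h libraries. All 4 values lie below those of all merged regions, which were 78.1% and 80.1% in WT and 80.6% and 75.1% in CBP. Closed regions had a 0 h peak in 87.0% and 88.9% of cases in WT and in 79.3% and 72.6% in CBP. Thus CBP was above WT by 7.97 percentage points on average for opened regions and below it by 12.0 points on average (a difference of -12.0) for closed regions. The groups did not overlap in either set, and the two-sided exact permutation p was 0.333 for both, the smallest possible. For opened regions the gap rested largely on CBP 0 h replicate 1: without it the difference was 2.92 points, and without CBP 0 h replicate 2 it was 13.0 points. Relative depth ran from 1.43 to 2.09 at 0 h, which lets weaker sites be called at 0 h than at 60 h, and CBP 0 h replicate 1 (1.98) was deeper than CBP 0 h replicate 2 (1.43). The part of depth in this difference was not tested.

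Few regions carried the same pattern at both times. Of the opened regions 360 (4.85%) were called in both CBP and neither WT library at 0 h, against 1.39% of all merged regions. The reverse pattern at 0 h was found for 103 opened regions (1.39%), against 2.21% of all merged regions. Of the closed regions 430 (6.91%) were called in both WT and neither CBP library at 0 h, and 34 (0.546%) in the reverse way. A peak was present in all 4 libraries at 0 h for 42.4% of opened, 66.3% of closed and 67.7% of all regions. No 0 h library had one for 20.8% of opened regions, 6.09% of closed regions and 12.1% of all. Closed regions thus had a peak in all 4 libraries at 0 h about as often as all regions, and lacked one in every 0 h library less often. Opened regions had a peak in all 4 libraries less often than all regions, and lacked one in every 0 h library more often.

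**Figure D3:**
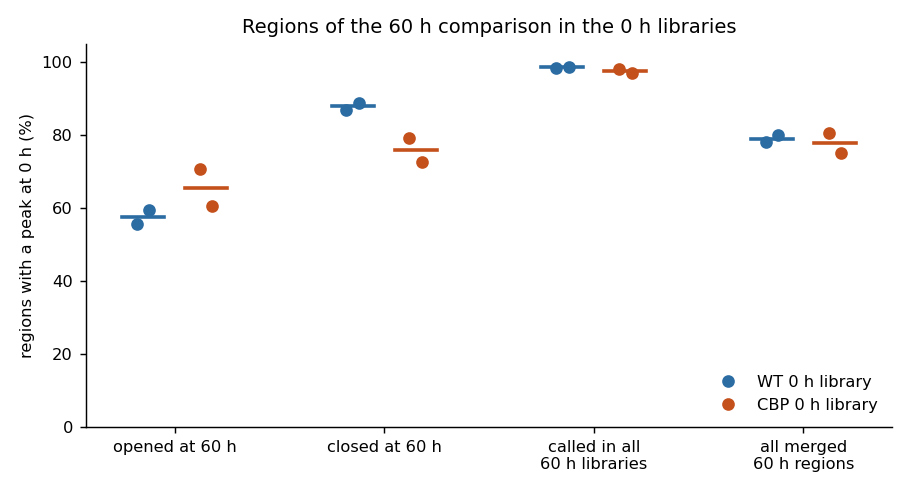
Share of regions with a peak in each 0 h library in percent (vertical axis), for regions opened, closed or called in all libraries at 60 h and for all merged regions (horizontal axis). Points are libraries and lines are group means of 2: CBP points lie above WT for opened regions (60.6% and 70.7% against 55.8% and 59.6%) and below WT for closed regions.

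Of the 8 strongest opened regions, ranked by the −log10 q of the weaker library, 5 lay inside genes and 3 between genes, more than 100 kb from the nearest one. One lay inside SGK1, which encodes a kinase induced by serum and glucocorticoids, at chr1:29713444-29714527 of Sscrofa11.1, with −log10 q of 25.5 and 16.5 in CBP replicates 1 and 2, no peak in WT and none in any 0 h library. A region inside CDH17, a cadherin gene, at chr4:42511437-42512194 had values of 16.6 and 18.04, and one at chr8:35589859-35590694, between genes with GNPDA2 nearest at 370331 bp, had 17.5 and 16.9. Neither of these had a peak at 0 h. The region inside DLG2, a synaptic scaffold gene, at chr9:19411542-19412205 had values of 17.2 and 17.5 at 60 h and was called at 0 h in both CBP and neither WT library. The other 4 of the 8 strongest lay in LOC100524475 and SVIL (supervillin, an actin- and myosin-binding protein) and far from TRPC7 (131838 bp) and NR2F1 (912488 bp). Each of these 4 was called at 0 h in both CBP libraries and in 1 or 2 WT libraries.

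All 8 of the strongest closed regions had a peak in all 4 libraries at 0 h. The strongest lay 19364 bp from MAT1A, a methionine adenosyltransferase gene, at chr14:82145852-82146637, with −log10 q of 27.4 and 30.1 in WT replicates 1 and 2. The next lay 13031 bp from NTN4, a netrin gene of the basement membrane, at chr5:87657263-87658121, with 27.2 and 28.0. A region inside GRB10, an adaptor that dampens insulin and IGF signalling, at chr9:136593439-136594299 had 28.7 and 23.5. The remaining 5 lay inside CSGALNACT1 (a chondroitin sulfate enzyme), LOC102158679 and PTPRR (a tyrosine phosphatase), and near EXOC4 (48028 bp, an exocyst subunit) and LOC110259923.

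Regions within 1 kb of a gene end were a small part of the opened (351) and closed (316) regions. Among the 8 strongest opened ones, HOXA7, a homeobox gene, had −log10 q of 10.4 and 11.8 in CBP. IGF1R, the receptor of insulin-like growth factor, had 8.97 and 8.83. AQP9, a water and glycerol channel, had 10.3 and 10.2 and was called at 0 h in both CBP and neither WT library. The gene end of ODF1, a sperm tail gene, had 14.4 and 15.5 and no peak at 0 h. Among the 8 strongest closed ones were GDF15, a stress-induced secreted factor (16.2 and 15.9 in WT), P2RX7, an ATP-gated channel (13.8 and 16.3), IER2, an immediate early gene (10.8 and 12.1) and TAGLN2, a transgelin that binds actin (11.15 and 10.4). All 8 of these closed gene ends had a peak in every 0 h library.

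Each region was linked to the nearest protein-coding gene within 50 kb. Of the 81313 linked regions 4.64% were opened and 4.88% closed, so the excess of opened over closed regions is not seen among linked regions. They belonged to 16858 genes, of which 2397 had more opened than closed regions and 2566 more closed than opened. The sign held in all 3 settings (all peaks, equal number, stricter q) for 882 and 1227 of these genes.

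Among the genes with the most net opened regions, the brachyury gene T, a transcription factor of early mesoderm, had 3 opened and 0 closed of 9 linked regions. Its regions with a peak numbered 2 and 2 in WT and 7 and 6 in CBP at 60 h, and 6 and 7 in WT and 8 and 7 in CBP at 0 h. The choice of the gene fixes the low WT values at 60 h, and the 0 h lists are longer. STC1, a secreted glycoprotein of calcium and phosphate balance, had 4 opened of 8 regions, with peaks in 3 and 3 in WT and 8 and 7 in CBP, against 6 and 7 in WT and 5 and 5 in CBP at 0 h. SGK1 had 3 opened of 20, with peaks in 9 and 5 in WT and 15 and 11 in CBP. TNC, the matrix protein tenascin C, had 4 opened and 1 closed of 25, and ZNF292, a zinc finger gene, 3 opened of 7. ANKRD55 (5 of 20), NRP2 (5 of 23), LOC110256655 (3 of 7), ANKFN1 (8 opened and 1 closed of 18) and LHFPL2 (7 and 1 of 25) completed the 10 genes. With −log10 q of at least 5, ANKFN1 kept only 1 opened and 0 closed of 10 regions, and LHFPL2 2 and 1 of 18. STC1 kept 3 opened and 0 closed of 7.

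The 10 genes with the most net closed regions had 4 closed and 0 opened each. For S100A6, a calcium-binding protein, 10 and 9 of 10 regions had a peak in WT and 6 and 5 in CBP at 60 h, against 9 or 10 in every 0 h library. PALLD, the actin-bundling protein palladin, had peaks in 13 and 10 of 14 regions in WT and 7 and 6 in CBP, against 14 and 14 in WT and 13 and 12 in CBP at 0 h. LTBP2, an extracellular protein of elastic fibres, had 11 and 10 of 14 in WT and 7 and 7 in CBP, and 10 or 11 at 0 h. The choice of the genes fixes the low CBP values at 60 h. ARHGEF2, a microtubule-associated protein, had 12 and 14 of 16 in WT against 9 and 9 in CBP. OXR1, an oxidation resistance gene, had 14 and 13 of 16 in WT and 9 and 8 in CBP. The other genes were MCHR1, a melanin-concentrating hormone receptor, GSAP, AKR1B1 (aldose reductase), BASP1 and COL15A1.

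For 20 gene lists the opened and closed regions were counted beside the shares over all linked regions (4.64% opened and 4.88% closed). Over all lists 180 of 3719 linked regions were opened (4.84%) and 198 closed (5.32%), near those shares. No test was made of a list, and single lists hold few opened or closed regions.

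For the myogenic regulators 5 of 184 regions were opened (2.72%) and 8 closed (4.35%). With −log10 q of at least 5 they had 3 opened and 12 closed of 134, and with links within 10 kb the net turned to 1 more opened than closed. That threshold drops weaker peaks from every library. A region counted as opened or closed under it may therefore hold a weaker peak in the other group. MYOD1 had 0 opened and 1 closed of 8 regions, and TCF12, a partner of MyoD in E-box binding, 0 and 2 of 18. MYF5 (4 regions) and MYOG (9) had neither kind. EYA4, a transcriptional cofactor and phosphatase, had 2 opened and 0 closed of 17, and neither kind at −log10 q of at least 5. MEF2C had 1 opened of 25 regions, but 1 closed and 0 opened at −log10 q of at least 5. The list of acetyltransferases, deacetylases and bromodomain proteins had 5 opened and 6 closed of 183 regions, both below the shares over all linked regions, and its net turned to 1 more opened with links within 10 kb. CREBBP itself had 1 opened and 1 closed of 10 regions, and EP300 neither of 4. KAT6B, another acetyltransferase, held the strongest region of that list, a closed one with −log10 q of 15.9 and 13.0 in WT.

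Satellite cell and Notch genes had 16 opened (7.34%) and 6 closed (2.75%) of 218 regions. Of 22 linked genes, 8 had more opened than closed regions, 1 the reverse and 13 neither. HEY1, a Notch target repressor, had 2 opened of 9 regions, CXCR4, a chemokine receptor of migrating precursors, 2 of 7, and NOTCH2 2 of 15, the last with the opposite net sign at −log10 q of at least 5. VCAM1, a surface protein used to sort satellite cells, had 2 opened and 1 closed of 13. Its opened region at chr4:117516132-117516757 was the strongest opened one of any list, with 12.0 and 11.2 in CBP and no peak at 0 h. PAX7 had 1 opened and 1 closed of 20 regions. Counts were 13 opened and 7 closed with −log10 q of at least 5, where HEY1 and PAX7 had neither kind.

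Genes of the contractile apparatus had 12 opened (4.74%) and 19 closed (7.51%) of 253 regions. Of 42 linked genes 6 had more opened and 11 more closed regions. MYBPC1, a myosin-binding protein, had 3 closed of 11, and TTN, the giant spring protein titin, 2 closed of 9, of which the stronger lay inside the gene with 9.30 and 7.80 in WT and no peak at 0 h. MYL1, MYL2, MYL3, MYH7, TNNT1, TNNI2 and CKM each had 1 closed and 0 opened region. TRIM63, a ubiquitin ligase of muscle wasting, had 1 closed region of 2, called with 15.1 and 12.5. More opened than closed regions were linked to TNNT3 (1 and 0 of 4), MYOZ2 and MYH2 (1 and 0 of 6 each), MYOM1 (2 and 0 of 15), ACTN2 (2 and 1 of 9) and TPM1 (2 and 1 of 20). MYOM1 and TPM1 turned to more closed regions at −log10 q of at least 5, where MYBPC1 had neither kind. With that threshold the list had 4 opened and 15 closed of 181 regions.

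Myoblast fusion and adhesion genes had 14 opened and 17 closed of 237 regions. DOCK1, an activator of Rac in fusion, had 3 closed of 13, while PTK2, the focal adhesion kinase, had 3 opened of 28. CDON, a coreceptor of cell contact, had 2 opened of 14, MCAM 2 closed of 4, and MYMK, the fusion protein myomaker, 1 opened of 7. Members of the list thus stood on both sides. With −log10 q of at least 5, DOCK1 had 1 opened and 1 closed region.

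Collagen and matrix genes had 16 opened (3.59%) and 32 closed (7.17%) of 446 regions. Of 35 linked genes 16 had more closed regions and 5 more opened ones. MMP2, a gelatinase, had 3 closed of 10 regions, LOXL1, an elastin cross-linking enzyme, 2 of 10, COL1A1 3 of 10 and COL15A1 4 of 21. TNC (4 opened and 1 closed) and TIMP3, an inhibitor of matrix proteases (2 opened of 18), went the other way. The list kept more closed than opened regions at −log10 q of at least 5 (24 against 13) and with equal peak numbers (36 against 14). COL1A1 had neither kind at −log10 q of at least 5, while COL15A1 had 2 opened and 4 closed regions there. Endothelial markers had 2 opened and 5 closed of 33 regions, immune markers 0 and 3 of 19, and pericyte markers 0 and 1 of 38. The part of such cells in the matrix counts was not tested.

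Axon guidance genes, many of which also guide migrating muscle precursors, had 24 opened (7.27%) and 10 closed (3.03%) of 330 regions, but 5 opened and 6 closed with links within 10 kb and 0 and 2 within 1 kb. Most of the opened regions of these genes thus lay more than 10 kb from a gene end. So did most regions of this list of any kind (118 of 330 lay within 10 kb) and most opened regions over all lists (57 of 180 within 10 kb). Of 31 linked genes 10 had more opened than closed regions, 8 the reverse and 13 neither. NRP2 had the most opened regions, 5 of 23. SEMA3D and SEMA5A, both semaphorins, had 3 opened each of 11 and 5 regions, and SLIT3 3 of 15. EFNA5, an ephrin, had 2 opened of 13 and SLIT1 2 of 17. SEMA4B had 1 opened and 2 closed of 12.

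Genes of TGF-beta and BMP signalling had 19 opened (6.44%) and 10 closed (3.39%) of 295 regions. Among ligands, BMP2 had 3 opened of 7 and BMP6 2 of 13. Among the intracellular SMAD proteins, SMAD2 had 3 opened and 1 closed of 11, and the inhibitory SMAD6 2 and 1 of 21. ACVR1, a type I receptor, had 1 closed of 15, with 10.5 and 12.3 in WT. With −log10 q of at least 5 the list had 13 opened and 11 closed regions, and BMP2 and BMP6 had neither kind.

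Wnt genes had 23 opened (8.39%) and 17 closed (6.20%) of 274 regions. The ligand WNT5B and the receptor FZD7 had 2 opened of 12 and of 6, and LGR5, a receptor of R-spondins, 3 of 9. The ligand WNT9A and the receptor FZD2 had 2 closed of 13 and of 10. RSPO3, an R-spondin, had 2 of each kind among 12. Insulin and IGF genes had 10 opened and 14 closed of 204 regions. The receptor IGF1R had 3 opened of 17, and GRB10 and the kinase AKT2 2 closed each of 13 and 8. FOXO1, a transcription factor held back by insulin signalling, had 2 opened and 3 closed of 24. The 3 IGF1R regions were neighbours within chr1:137688841-137690383, with the same −log10 q in the CBP 0 h libraries (20.9 and 10.6). The 2 opened regions of FZD7 and 2 of the closed regions of FOXO1 were also close neighbours sharing some 0 h values. Such regions may be pieces of 1 site, so these counts may exceed the number of sites.

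AP-1 and immediate early genes had 5 opened and 9 closed of 167: EGR1 had 2 opened of 4, and MYC 2 closed of 9. The opened EGR1 region at chr2:140439955-140440284 had −log10 q of 6.14 and 5.71 in CBP at 60 h. It overlapped peaks of 63.3 to 68.1 in all 4 libraries at 0 h. Whether it is a piece of a larger site was not tested. Cell cycle genes had 4 opened and 5 closed of 109, with 3 closed of 9 at RBL1, a relative of the retinoblastoma protein, and 2 opened of 8 at E2F3. Inflammatory genes had 4 opened and 5 closed of 166. Adipogenic genes had 7 opened and 8 closed of 167, and PPARG, the master regulator of fat cells, 3 opened and 1 closed of 17. Mesenchymal transcription factors had 12 opened and 19 closed of 337. NFIA had 3 closed of 25 and its relative NFIB 3 opened of 18. The net of the adipogenic and mesenchymal lists turned to more opened than closed regions at −log10 q of at least 5. Housekeeping genes had 2 opened and 4 closed of 49, and neural markers neither of 10.

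**Figure D4:**
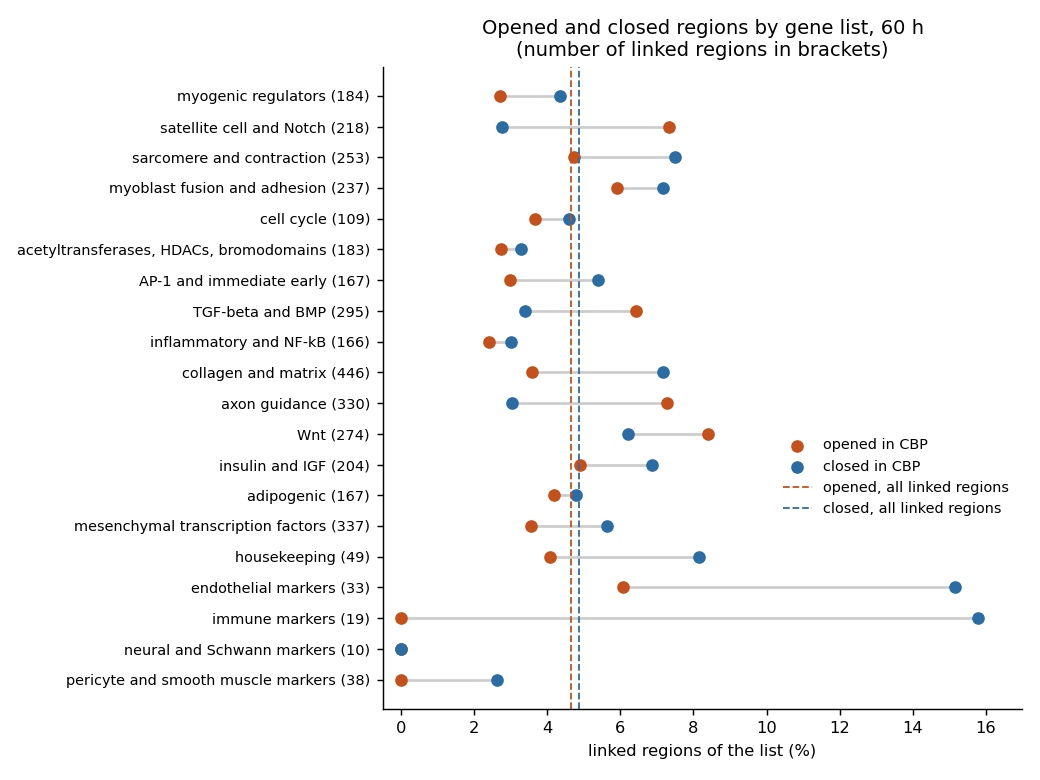
Share of linked regions opened (orange) and closed (blue) in CBP at 60 h in percent (horizontal axis) for 20 gene lists (vertical axis, number of linked regions in brackets), with dashed lines at the shares over all linked regions, 4.64% and 4.88%. Opened lies right of closed for the satellite cell and Notch, axon guidance, Wnt, and TGF-beta and BMP lists. It lies left of closed for every other list except neural markers, where both are 0. Lists with opened on the left include collagen and matrix, sarcomere and also housekeeping genes (4.08% against 8.16%).

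Regions called in all 4 libraries were compared by rank. Each was given its percentile by −log10 q within each library over the same 53287 regions, and was counted as shifted when both CBP ranks lay above, or both below, both WT ranks by at least 20 percentile points. Of these regions 1887 (3.54%) were ranked higher in CBP and 2348 (4.41%) lower, an order that turned with any gap (13776 higher and 13079 lower). The median difference of rank was 7.29 points between the WT replicates and 7.47 between the CBP replicates, and 10.1 to 10.5 between libraries of different groups.

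The direction differed by position. At gene ends 268 regions were ranked higher and 125 lower in CBP, which is 2.14% and 0.996% of 12547. Inside genes 772 were higher and 1147 lower, and between genes 847 and 1076. Gene ends were the only one of these positions with more higher than lower ranks. They kept this when ranked by the authors' fold (183 against 92), with a gap of 10 points (927 against 326), with any gap (3852 against 1711) and without any 1 library (1.90 to 3.28 times as many). Ranks are relative, so a rise at gene ends and a fall elsewhere cannot be told apart. The summed −log10 q of the whole lists lay at gene ends for 29.6% and 31.4% in WT and 32.8% and 31.6% in CBP, a mean difference of 1.69 percentage points (two-sided exact permutation p = 0.333, the smallest possible).

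**Figure D5:**
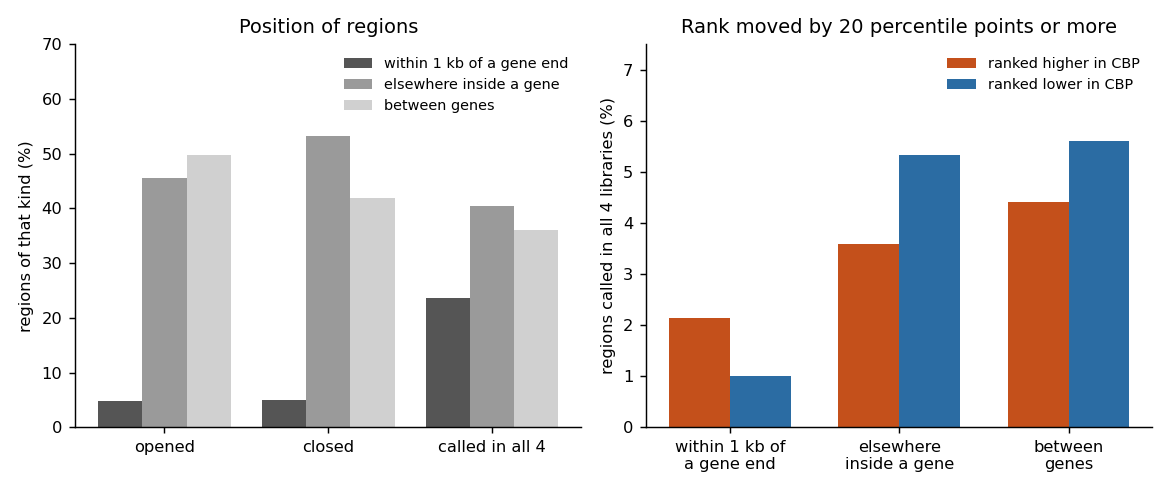
Left, share of opened, closed and shared regions in percent at each position relative to protein-coding genes. Right, share of the regions called in all 4 libraries at each position whose rank was at least 20 percentile points higher (orange) or lower (blue) in both CBP than in both WT libraries: the orange bar is the taller one at gene ends only (2.14% against 0.996%).

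Over linked regions called in all 4 libraries, 2.83% were ranked higher and 4.07% lower. By list, the ranks did not always follow the calls. Collagen and matrix genes had 5 higher and 12 lower, and myogenic regulators 1 and 4. Sarcomere genes, with more closed than opened regions, had 3 higher and 1 lower. Satellite cell and Notch genes had 6 and 2, axon guidance genes 8 and 8, Wnt genes 9 and 8, and TGF-beta and BMP genes 3 and 4.

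The region with the widest gap upward, chosen by its rank gap, lay between genes 112842 bp from SLITRK6 at chr11:56395029-56395870. Its percentile was 7.86 and 6.24 in WT and 73.6 and 78.3 in CBP. The second lay inside MET, the receptor of hepatocyte growth factor that wakes satellite cells, at chr18:29438377-29439362, with percentiles of 9.72 and 13.8 in WT and 75.9 and 80.7 in CBP. MET also had 1 opened and 1 closed of 16 linked regions. A region at the end of LRRC17, inside FBXL13, had 3.63 and 7.46 in WT and 68.9 and 74.8 in CBP, and one inside ESR1, the estrogen receptor, 18.5 and 1.69 in WT and 77.0 and 79.4 in CBP.

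The widest gap downward lay 60319 bp from NUP35, a nuclear pore gene, at chr15:88676630-88677498. Its percentile was 91.2 and 83.0 in WT and 4.85 and 5.70 in CBP. Regions inside POLE2, a DNA polymerase subunit (75.1 and 76.8 against 4.85 and 2.95) and SIK3, a kinase that restrains class IIa deacetylases (77.7 and 72.8 against 3.96 and 8.33), were also among the 10 widest. None of these percentiles overlapped between groups, as the choice by gap requires.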

How the data were processed

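Peak lists of 4 ATAC-seq libraries at 60 h (and 4 at 0 h) were analysed, 1 list per library. Trimmomatic, MACS2 2.1.0 and the build Sscrofa11.1 are named in the submitters' processing notes. The aligner, duplicate removal, mitochondrial reads and transposase shift, not given in the sources used here, could change peak edges and heights. For each peak the authors deposited a score, a fold enrichment (ratio), a −log10 p-value and also its −log10 q-value, and none of these is a read count. These strengths were used only within a list. The −log10 q of every 60 h list began near 1.3 (1.30 to 1.32).

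Peaks off chromosomes 1 to 18 and X (0.952% to 1.00% at 60 h) were left out. Merging, calls, links and counts were made with Python 3.11.15, pandas 2.3.3 and numpy 2.4.6, and the code was tested on simulated data. Relative depth came from solving the fold and p-value of each peak for whole pileups (100% of peaks solved within 0.01 in −log10 p); absolute depth is unknown. Regions were linked to the nearer end of 19467 RefSeq protein-coding genes of Sscrofa11.1, without strand, so a gene end may be a start or a finish and exons are not told apart. Library values were compared by two-sided exact permutation, and 2 against 2 cannot go below 0.333. Groups share replicate numbers, and nothing in the labels ties same-numbered libraries together. Of 448 gene list entries, 434 matched a gene.

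The members and lists were chosen with earlier results of these data known. Named were the 10 genes per direction with the most net regions of stable sign, the 8 strongest regions per direction overall and at gene ends, list members with the most regions, the 3 leading windows of 1 Mb per direction, and 7 fixed genes. Other genes of a list with 1 region, the strongest regions of a list and those with the widest rank gap were chosen after their values were seen. Alternatives were a −log10 q of at least 5, equal peak numbers, 50% overlap, merging over 8 libraries, shorter links and leaving out each library. The stricter q and the equal peak numbers drop weaker peaks from the lists. Regions called opened or closed under them may therefore hold a weaker peak in the other group.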

Additional observations from a re-analysis of the deposited data

How the results depend on the processing

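Opened regions numbered 7419 and ran from 5325 (−log10 q of at least 5) to 8856 (50% overlap), with 10588 to 18754 when 1 library was left out. Closed regions numbered 6225 and ran from 5123 to 7668, with 9514 to 15205; fewer libraries set fewer conditions, so these counts grow by construction. Closed exceeded opened with equal peak numbers (6733 against 6510), so which kind is more numerous depends on that setting. For regions called in all libraries, shifts numbered 5123 up and 5421 down with a gap of 10 points, 13776 and 13079 with any gap (where the order turned), and 3822 to 3986 up and 4095 to 4405 down when 1 library was left out. List genes had 57 opened and 83 closed regions with links within 10 kb and 10 and 14 within 1 kb, against 180 and 198. Covered length, CBP minus WT, was 2.07 Mb and ran from -0.124 (without WT replicate 2) to 4.26 Mb (without WT replicate 1). Median width turned to 9.5 bp (equal number), 1 bp (−log10 q of at least 5) and ran from -25.5 to 4.5 bp when 1 library was left out (4.5 without WT replicate 1), and the share of summits at gene ends to 0.0236 percentage points (equal number); the causes were not tested.

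The replicate block (differences within replicate numbers, paired exact sign-flip test) gave p = 0.5 for the peak number difference of 3935, the smallest that 2 pairs allow. The mean of paired differences equals the difference of group means here, so the block could not change the size or direction of a library measure. The counts come from no test and have no block. Leave-one-out and other settings of the rank shift, of calls at 0 h and of position were added after seeing the data. The difference in calls at 0 h ran from 2.92 to 13.0 points for opened and from -15.3 to -8.65 points for closed regions.

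Net counts of list regions (opened minus closed) changed sign within 10 kb for myogenic regulators (1), acetyltransferases (1) and axon guidance (-1, and -2 within 1 kb). They did so at −log10 q of at least 5 for adipogenic (2) and mesenchymal genes (5), and within 1 kb for endothelial markers (1). At −log10 q of at least 5, MEF2C, NOTCH2, MYOM1 and PPIA turned to -1, TPM1 to -2 (-1 with equal number), CALCR, TNFAIP3, LIF, PIK3R1, CDH5 and PTPRC to 1, and MEOX2 to 2. Within 10 kb, TEAD1, TCF7L2 and FOXO1 turned to 1 and COL12A1, PPARG and IGF2R to -1 (IGF2R also with equal number), and IGFBP3 turned to -1 within 1 kb. Over the 140 genes of the naming rule, 315 of 560 such values kept their sign, 224 moved, mostly to 0, and 21 turned. Among list genes outside that rule, RBPJ and NCOA1 turned to -1 and SMARCA4, DUSP6, IGFBP2 and RXRA to 1 at −log10 q of at least 5. A motif search with 16 motifs had been planned and was not run, since no genome sequence was used here. Absolute depth is unknown, and its part in the calls of weak peaks was not tested.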

Other observations

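The shares of opened and closed regions were set beside each other by chromosome, against 5.96% and 5.00% over all regions. The opened share of regions ran from 4.07% on chromosome 12 to 7.04% on chromosome 16, and the closed share from 4.34% on chromosome 10 to 5.61% on chromosome X. Opened regions outnumbered closed ones most on chromosomes 18 and 16 (1.41 times on both), and were fewer than closed ones only on chromosomes 12 (0.913 times) and X (0.904 times). No test was made of these shares.

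In windows of 1 Mb, the most net opened regions lay on chromosome 2 from 148000001 to 149000000, with 15 opened and 1 closed of 67 regions. This window holds DPYSL3, a cytoskeletal protein of growth cones, PPP2R2B, STK32A and JAKMIP2. Its regions with a peak numbered 37 and 35 in WT and 59 and 52 in CBP at 60 h. At 0 h they numbered 55 and 51 in WT and 59 and 55 in CBP. The choice of the window fixes the low WT values at 60 h. A window on the same chromosome from 145000001 to 146000000, with YIPF5 and KCTD16, had 12 opened and 1 closed of 56, and peaks in 24 and 20 regions in WT against 44 and 40 in CBP. The window from 39000001 to 40000000, with PRMT3, an arginine methyltransferase, and NAV2, had 15 opened and 3 closed of 100.

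The window with the most net closed regions lay on chromosome 14 from 39000001 to 40000000, with 12 closed and 0 opened of 45. It holds PTPN11, the phosphatase SHP2, ALDH2, RPH3A and MAPKAPK5. Its regions with a peak numbered 36 and 39 in WT and 25 and 23 in CBP at 60 h. At 0 h they numbered 39 and 41 in WT and 38 and 35 in CBP. The window on chromosome 1 from 251000001 to 252000000, with MUSK, the receptor kinase that organises the neuromuscular junction, LPAR1 and SVEP1, had 4 opened and 14 closed of 116. The window on chromosome 13 from 158000001 to 159000000, with ABI3BP, TFG and FILIP1L, had 2 opened and 12 closed of 68.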
